A study of Mus musculus with 12 samples.

Results

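The 10 genes described here are components of the Wnt signalling pathway, examined for chromatin accessibility in mouse skin and in its squamous cell carcinomas. They are the nuclear effectors Lef1 and Tcf7, the feedback inhibitor Axin2, the ligands Wnt5a, Wnt7b and Wnt10a, the receptor Fzd7, and the secreted modulators Dkk3, Sfrp1 and Wif1. A peak of open chromatin was given to a gene when its midpoint lay in the gene's span, or within 50 kb of it, on the mm10 build, and no other protein-coding gene was nearer. This gave 173 of 177240 peaks to the 10 genes, out of 18106 genes that hold a peak. All 173 peaks and all 10 genes passed the filter on low counts. The genes differ in how many peaks they hold: 16 for Lef1, 12 for Tcf7, 21 for Axin2, 15 for Wnt5a, 36 for Wnt7b, 11 for Wnt10a, 15 for Fzd7, 21 for Dkk3, 23 for Sfrp1 and 3 for Wif1, against a median of 5 over all genes with a peak.

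The readout is ATAC-seq, where a transposase cuts accessible DNA and tags it for sequencing, and the 6 samples fall into 5 groups. Normal skin of WT mice gave the hair follicle sample (HF) and the sample of interfollicular epidermis (IFE). The tumour groups carry K14CreER, active in basal keratinocytes, or Lgr5CreER, active in follicle stem cells, with p53fl/fl and Rosa-YFP+/+ among their other alleles. After sorting, K14 Epcam+ has 1 sample, Lgr5 Epcam+ has 2 (called samples 1 and 2) and Lgr5 Epcam- has 1. Epcam sits on the surface of epithelial cells, and the sort also used antibodies against CD45, CD31 and CD140a, which mark leukocytes, endothelium and fibroblasts. The mice were all female, on a mixed background. Their ages, the animals or tumours pooled per sample and the time since Cre induction were not stated in the labels. Whether the pair of Lgr5 Epcam+ samples came from separate animals was not stated either. The p-values below measure only the spread between samples, which within this pair may be technical.

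Wnt ligands bind Frizzled receptors together with Lrp co-receptors, and this stops a complex built on Axin proteins from marking beta-catenin for degradation. Beta-catenin then enters the nucleus and activates genes together with TCF/LEF factors, and Axin2 is both such a target and an inhibitor in the loop. Secreted proteins of the Sfrp, Wif and Dkk families bind the ligands or the co-receptors and restrain the pathway. In skin the pathway is known for hair follicle formation and for activating follicle stem cells at the start of hair growth.

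Counts in peaks came to 32086654 in HF, 34040799 in IFE, and 39179299 to 62941406 in the tumour samples. The level of a gene is given as CPM (counts scaled to a common library total) over all of its peaks, after scaling by the trimmed mean of M-values (TMM). The denominator is the sample's count in peaks on chromosomes 1 to 14, except for Wnt7b on chromosome 15, where only the paired-end run was used because the single-end run of K14 Epcam+ places 11.1% of its counts on chromosomes 15 to X against 19.05% in its paired-end run. Levels were not compared between genes, since each sums over another set of peaks. Coverage outside peaks, scaled to the summed length of the peaks, equals 26.0% (HF), 19.5% (IFE) and 9.16% to 15.6% (tumour samples) of the counts inside them, so this background is higher in the normal samples. Ratios are log2 differences from edgeR's quasi-likelihood test with their standard error (SE), and a feature is called when the p-value adjusted over all genes or all peaks is below 0.05. The normal labels held against their markers: the 7 follicle stem cell markers summed to 1436 CPM in HF and 743 CPM in IFE, and the 7 epidermal differentiation markers to 191 CPM in HF and 470 CPM in IFE.

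Promoters are shown for Lef1, the member called higher at the level of the gene in Epcam+ tumours, and for Fzd7. The start of Fzd7 lies in the most accessible of its peaks, as does that of Wif1, which is not printed. Among the 5 members with a start in RefSeq's promoter table, no peak over a start was called, while peaks away from the starts were. Of the other members, Wnt5a, Wnt10a and Sfrp1 have a called peak at an end of the span. Whether a called peak covers a start of the other members was not assessed. RefSeq's promoter table for GRCm38.p6 holds 5 of the 10 genes (Lef1, Tcf7, Axin2, Fzd7 and Wif1) and has no entry for Sfrp1, the member called lower in the Epcam- sample, and the 250 bases before a start are printed here, 5′ to 3′, with capitals for matches to the letters CTTTGA or CTTTGT, the core read by TCF/LEF factors, on either strand. The Lef1 windows are chr3:131110047-131110296, before the start at the end of the gene's span, and chr3:131156044-131156293, before a start inside the gene, both on the plus strand. The Fzd7 window is chr1:59481897-59482146, on the plus strand.
Lef1, outer start: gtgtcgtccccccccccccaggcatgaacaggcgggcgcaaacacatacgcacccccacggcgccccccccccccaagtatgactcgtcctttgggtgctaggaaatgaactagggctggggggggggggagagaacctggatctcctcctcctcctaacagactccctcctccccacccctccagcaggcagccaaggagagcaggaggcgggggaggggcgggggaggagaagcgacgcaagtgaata
Lef1, inner start: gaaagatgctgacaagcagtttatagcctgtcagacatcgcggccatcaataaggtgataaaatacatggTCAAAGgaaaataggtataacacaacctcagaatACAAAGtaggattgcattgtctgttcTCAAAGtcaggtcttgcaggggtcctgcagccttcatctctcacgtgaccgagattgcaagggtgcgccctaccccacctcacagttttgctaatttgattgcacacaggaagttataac
Fzd7: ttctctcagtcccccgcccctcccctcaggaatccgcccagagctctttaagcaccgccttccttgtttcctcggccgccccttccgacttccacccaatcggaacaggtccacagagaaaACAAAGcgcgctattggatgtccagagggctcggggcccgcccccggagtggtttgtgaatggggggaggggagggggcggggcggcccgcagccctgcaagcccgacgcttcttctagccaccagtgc
The inner Lef1 window holds 2 matches to CTTTGA, 180 and 120 bases before the start, and 1 match to CTTTGT, 146 bases before it. The Fzd7 window holds 1 match to CTTTGT, 129 bases before the start, and the outer Lef1 window holds none. The table also lists Lef1 windows at chr3:131110073-131110322 and, before a start inside the gene, chr3:131112541-131112790, and neither holds a match to these cores. The windows of Tcf7, Axin2 and Wif1 hold none either. So every such match among the members' windows is in a window printed here. Of 21262 promoter entries of this length, 12.7% hold CTTTGA, and CTTTGT is found in 14.9% of them. Searched in the same way on both strands, the AP-1 letters TGANTCA, whose first letters can overlap the end of the former core, are in 6.13% of the entries, and the E-box letters CACCTG are in 16.9%, and neither is in a window printed here. A match is a stretch of letters, not a site shown to be bound.

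The peak over the outer Lef1 start had 5.82 CPM in HF, 2.61 in IFE, 5.44 in K14 Epcam+ cells, 6.78 and 5.14 in Lgr5 Epcam+ samples 1 and 2, and 5.87 in Lgr5 Epcam-. The peak over the inner start had 3.37, 2.54, 3.48, 2.66, 2.50 and 1.57 CPM in the same order. Over the Fzd7 start the values were 41.3, 32.4, 35.6, 64.7, 49.7 and 44.2 CPM. In each of them the tumour values overlap the normal ones. Over all members 6 peaks hold a RefSeq start (2 of Lef1, and 1 each of Tcf7, Axin2, Fzd7 and Wif1), and none was called in any of the 3 comparisons of peaks. Over all genes 10885 peaks hold a RefSeq start, and 9.11% of them were called higher and 5.0% lower in Epcam+ tumours against normal epithelia. These shares were 8.34% and 2.11% in Lgr5 Epcam+ against HF, and 2.34% and 3.19% in Lgr5 Epcam- against Lgr5 Epcam+, and 0 of 6 is near all of these shares. Over these 6 peaks the log2 ratios of Epcam+ tumours against normal epithelia ran from -0.26 (SE 0.29) for Axin2 to 0.60 (SE 0.34) for Wif1. Over all 10 members, 14 peaks have their midpoint within 1 kb of either end of a span. Of these 4 rose and 0 fell in Lgr5 Epcam+ against HF, beside 7.83% and 3.06% of such peaks over all genes. In Lgr5 Epcam- against Lgr5 Epcam+ 0 rose and 4 fell, beside 2.65% and 3.48%. In Epcam+ tumours against normal epithelia 2 rose and 1 fell, beside 9.74% and 7.22%.

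Taken as whole genes, few of the 10 changed. The 3 Epcam+ tumour samples were compared with the 2 normal samples in a fit with 3 residual degrees of freedom. In it each group's samples stand together whatever their origin. Differences between HF and IFE, or between K14 Epcam+ and Lgr5 Epcam+, therefore count as spread there. Lef1 rose and no other member was called in either direction, while 14.8% of all 18104 genes tested were called higher and 9.15% lower. In the Lgr5 Epcam- sample against the Lgr5 Epcam+ pair, Sfrp1 fell and the other 9 were not called, against 2.04% of all genes called higher and 2.36% lower. The median ratio of all genes moved with the scaling, from 0.07 with TMM to -0.13 with total counts in the first comparison and from -0.11 to 0.08 in the second. In Lgr5 Epcam+ against HF none of the 10 was called, against 6.16% of all genes higher and 2.75% lower. The median of all genes there moved from 0.22 to -0.11. By edgeR 3 members had an unadjusted p below 0.05 there, and DESeq2 called 2 of them, Wnt5a and Wnt10a. These comparisons share the Lgr5 Epcam+ samples, so their values are given side by side and not as independent evidence. Where a group has 1 sample, the fit assumes that it varies as the replicated group does.

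**Figure D1:**
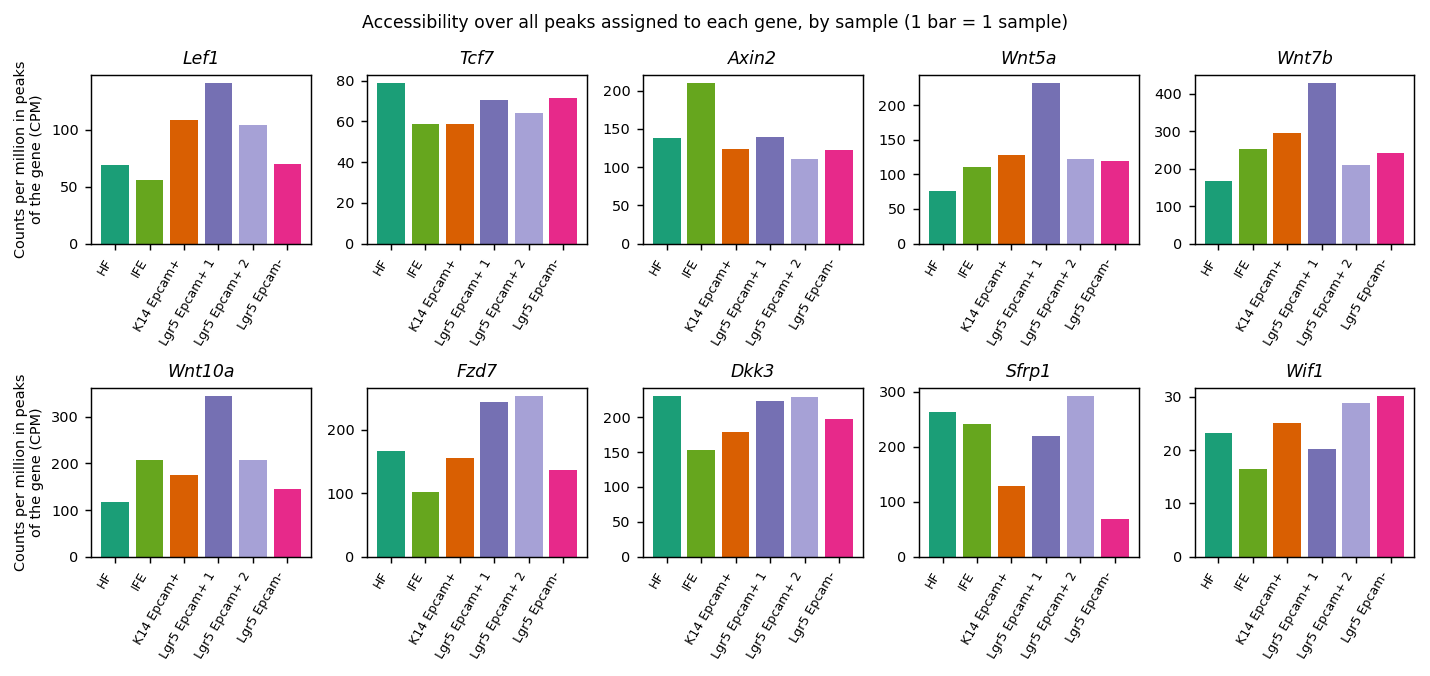
Accessibility of the 10 genes in each of the 6 samples, as TMM-scaled CPM summed over the gene's peaks, with 1 bar per sample and each axis starting at 0. Lef1 is higher in the 3 Epcam+ tumour samples (104 to 141 CPM) than in the other 3 samples (56.2 to 69.9 CPM), and Sfrp1 is lowest in Lgr5 Epcam- (67.9 CPM).

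Among single peaks, calls in both directions were found within 5 of the 10 genes in Epcam+ tumours against normal epithelia. Of the 173 peaks, 28 rose and 25 fell in this comparison, where 15.1% of all 177238 peaks tested were called higher and 15.2% lower. These are 16.2% and 14.5% of the members' peaks, near the shares over all peaks. With total-count scaling in place of TMM the members' counts were 21 and 31, beside 12.5% and 18.5% of all peaks. Without Lgr5 Epcam+ sample 1 they were 11 and 13, beside 9.10% and 6.30% of all peaks. In Lgr5 Epcam- against Lgr5 Epcam+, 2 peaks rose and 28 fell, against 6.81% of all peaks called higher and 5.75% lower. These are 1.16% and 16.2% of the members' peaks. With total-count scaling the counts were 7 and 28, beside 9.10% and 5.40% of all peaks. The balance over all peaks turned with DESeq2, to 2.81% higher and 5.49% lower, and with background subtracted, to 3.91% and 6.15%, where the members' counts were 2 and 28, and 2 and 26. In Lgr5 Epcam+ against HF, 22 rose and 13 fell, against 9.67% and 7.68% of all peaks, and total-count scaling gave 19 and 25, beside 7.99% and 12.9% of all peaks.

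The direction of the called peaks differed from gene to gene. In Epcam+ tumours against normal epithelia, every called peak rose at Lef1 (5), Wnt5a (6) and Wnt10a (1), and every called peak fell at Tcf7 (3). At Axin2 12 fell and 1 rose, at Wnt7b 6 rose and 1 fell, and Fzd7 (3 and 2), Dkk3 (4 and 4) and Sfrp1 (2 and 3) were mixed, with none called at Wif1. In Lgr5 Epcam- against Lgr5 Epcam+, 9 of the 28 lower peaks belong to Sfrp1, 5 to Wnt5a, and 3 each to Lef1, Wnt7b, Wnt10a and Dkk3. Tcf7 and Wif1 had no called peak there.

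**Figure D2:**
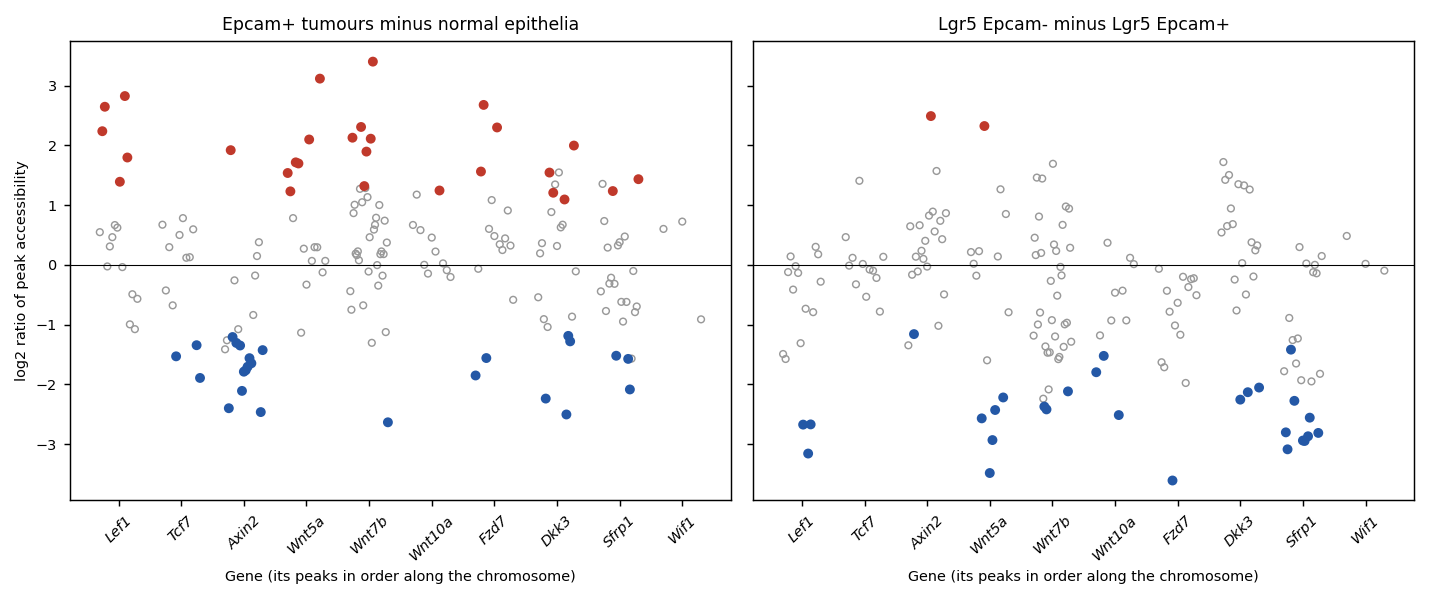
log2 ratio of accessibility of each of the 173 peaks, by gene and in order along the chromosome, for Epcam+ tumours minus normal epithelia (left) and Lgr5 Epcam- minus Lgr5 Epcam+ (right). Filled points are called by edgeR (red higher, blue lower), open points are not. Axin2 has 12 blue points on the left and Sfrp1 has 9 on the right.

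Lef1, a DNA-binding partner of beta-catenin that is expressed in the cells that build the hair shaft, had 68.6 CPM in HF, 56.2 in IFE, 108 in K14 Epcam+ cells, 141 and 104 in Lgr5 Epcam+ samples 1 and 2, and 69.9 in Lgr5 Epcam-. All Epcam+ tumour samples stood above the normal samples and the Epcam- sample. The difference between Epcam+ tumours and normal epithelia was 0.92 on the log2 scale (SE 0.26, edgeR adjusted p = 0.0104). The call was lost without Lgr5 Epcam+ sample 1 (0.76, edgeR adjusted p = 0.0529), without IFE (0.78, edgeR adjusted p = 0.111) and with peaks within 10 kb only (0.63, edgeR adjusted p = 0.0683). In Lgr5 Epcam- against Lgr5 Epcam+ the ratio was -0.81 (SE 0.33, edgeR adjusted p = 0.221), which was not called.

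At Lef1 5 of 16 peaks rose in Epcam+ tumours, and none of them holds a RefSeq start of the gene. The most accessible, chr3:131084802-131085851, lies 25.0 kb outside the gene, before the outer start, and had 3.23 CPM in HF and 3.51 in IFE against 18.4, 26.8 and 17.2 in the Epcam+ tumours and 20.2 in Lgr5 Epcam-. It rose by 2.65 on the log2 scale (SE 0.38, edgeR adjusted p = 0.00110) and was as accessible in the Epcam- tumour cells as in the Epcam+ ones (ratio -0.12, SE 0.47). A peak inside the gene, chr3:131168836-131169900, behaved otherwise: it had 2.13 CPM in HF, 2.21 in IFE, 14.3, 20.5 and 10.4 in the Epcam+ tumours and 1.78 in Lgr5 Epcam-. It rose by 2.83 in Epcam+ tumours (SE 0.46, edgeR adjusted p = 0.00176) and fell by 3.16 in Lgr5 Epcam- against Lgr5 Epcam+ (SE 0.71, edgeR adjusted p = 0.0102). So the Epcam- sample had the outer peak at tumour level and the inner one at the level of normal epithelia. The inner peaks chr3:131143105-131144408 and chr3:131177281-131178403 were called in the same directions, with log2 ratios of 1.39 and 1.80 in Epcam+ tumours and -2.68 and -2.67 in Lgr5 Epcam-. Without IFE 2 of the 5 Lef1 peaks were still called in Epcam+ tumours, and with the background subtracted 4 of them were.

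Tcf7, the other TCF/LEF factor among the members, best known from T cells, had 79.0 CPM in HF, 58.6 in IFE, 58.8 in K14 Epcam+ cells, 70.6 and 63.8 in Lgr5 Epcam+ and 71.4 in Lgr5 Epcam-. The samples lay within a range of 0.43 on the log2 scale, the smallest of the 10 genes. The ratio of Epcam+ tumours against normal epithelia was -0.10 (SE 0.25), and it turned positive (0.04) with peaks within 10 kb only. Its 3 called peaks all fell in Epcam+ tumours: one inside the gene had 11.2 CPM in HF and 8.07 in IFE against 3.08 to 3.70 in Epcam+ tumours and 8.90 in Lgr5 Epcam-, and 2 lay outside the gene. The farther of these, chr11:52321175-52322232, 38.3 kb from the span, had 4.96 and 5.05 CPM in HF and IFE and 0.91 to 1.67 in the Epcam+ tumours, a fall of 1.89 (SE 0.41, edgeR adjusted p = 0.00635). The Tcf7 start peak was not among them.

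Axin2, the feedback inhibitor and a common readout of beta-catenin activity, had 139 CPM in HF, 211 in IFE, 124 in K14 Epcam+ cells, 139 and 110 in Lgr5 Epcam+ and 122 in Lgr5 Epcam-. IFE was the highest sample and HF lay within the tumour range. The ratio of Epcam+ tumours against normal epithelia was -0.49 (SE 0.26, edgeR adjusted p = 0.168). With peaks within 10 kb only it was -1.02 (edgeR adjusted p = 0.00236), with total-count scaling -0.68 (edgeR adjusted p = 0.0405) and with background subtracted -0.82 (edgeR adjusted p = 0.0415), and each of these was called.

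The sum hides opposite changes along the Axin2 locus. A peak 19.5 kb outside the gene, chr11:108897743-108899009, had 7.68 CPM in HF, 14.3 in IFE, 36.2 in K14 Epcam+ cells, 48.9 and 39.1 in Lgr5 Epcam+ and 19.7 in Lgr5 Epcam-. All tumour samples exceeded both normal samples. It rose by 1.92 in Epcam+ tumours (SE 0.34, edgeR adjusted p = 0.00270) and by 2.53 in Lgr5 Epcam+ against HF (SE 0.37, edgeR adjusted p = 0.000430). It fell by 1.16 in Lgr5 Epcam- against Lgr5 Epcam+ (SE 0.34, edgeR adjusted p = 0.0348), a call lost with DESeq2 (-1.16, adjusted p = 0.156) and with background subtracted (-1.01, edgeR adjusted p = 0.0669). The other 12 called Axin2 peaks fell in Epcam+ tumours, with log2 ratios from -2.47 to -1.21.

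Most of the falling Axin2 peaks lie inside the gene or at its end and are of low accessibility. Their median was 3.87 CPM in HF and 6.36 in IFE, and 1.57 to 1.73 in the Epcam+ tumour samples. The clearest inside the gene, chr11:108933403-108934527, had 7.23 CPM in HF, 6.35 in IFE, 1.90, 1.21 and 1.74 in Epcam+ tumours and 1.93 in Lgr5 Epcam-, a fall of 2.11 (SE 0.39, edgeR adjusted p = 0.00308). Coverage outside peaks came to 1.39 CPM per kb in HF and 1.15 in IFE against 0.64 to 0.83 in the Epcam+ tumours, so it was lower in the tumours too. With this background subtracted, 12 Axin2 peaks were called lower, 11 of them among the 12. Without IFE 3 of the 12 were still called, and without Lgr5 Epcam+ sample 1 6 of them were. Peaks within 5 Mb of Axin2, 1069 in number, had a median ratio of 0.27 in Epcam+ tumours. The part of the background or of the surrounding region in the fall of the 12 Axin2 peaks was not tested. The peak over the Axin2 start had 23.9 CPM in HF, 27.1 in IFE and 18.8 to 25.6 in the tumour samples and was not called.

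A peak in the last part of Axin2 set the Epcam- sample apart. At chr11:108946749-108948256 HF had 9.68 CPM, IFE 6.38, K14 Epcam+ 3.25, Lgr5 Epcam+ 2.34 and 1.92, and Lgr5 Epcam- 11.7. It fell by 1.71 in Epcam+ tumours (SE 0.40, edgeR adjusted p = 0.00971), which was lost without HF (edgeR adjusted p = 0.0573) or without Lgr5 Epcam+ sample 1 (edgeR adjusted p = 0.0543). It was higher in Lgr5 Epcam- than in Lgr5 Epcam+ by 2.49 (SE 0.56, edgeR adjusted p = 0.00971), and it is the only member peak called lower in the first comparison and higher in the second.

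**Figure D3:**
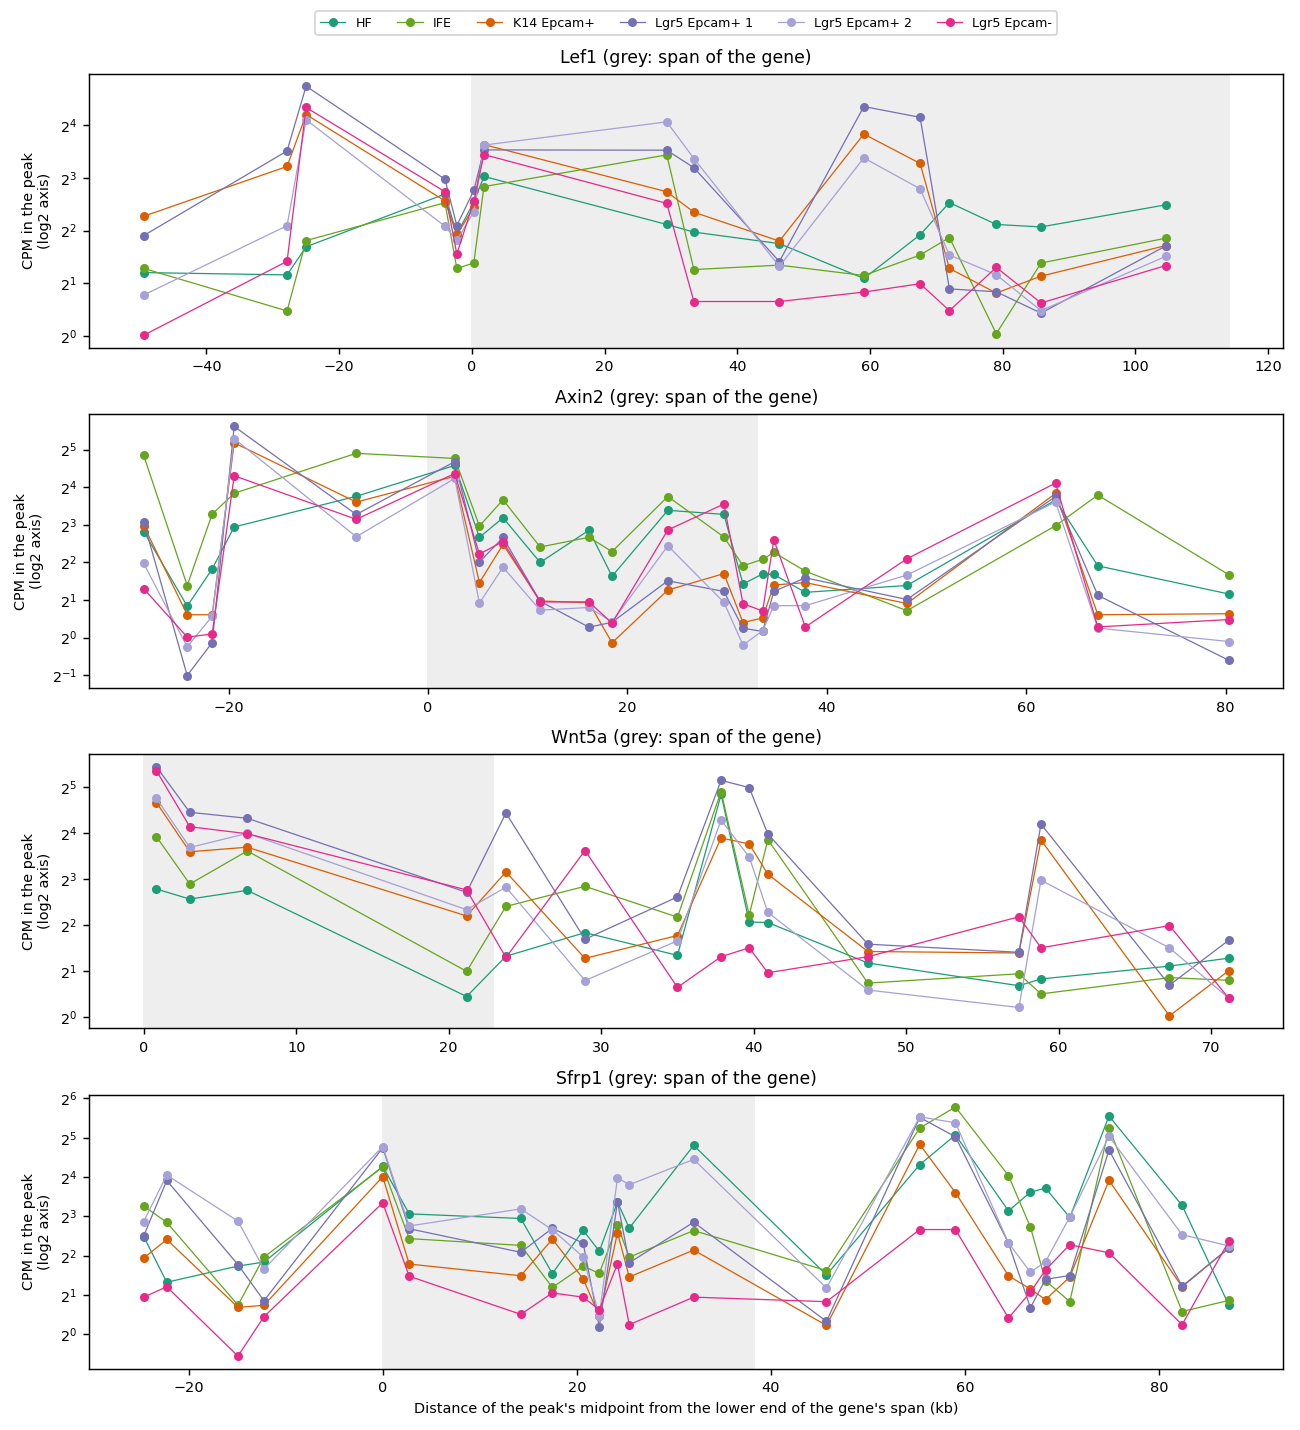
Accessibility of each peak (CPM on a log2 axis) against the distance of its midpoint from the lower end of the gene's span, for Lef1, Axin2, Wnt5a and Sfrp1. Points are samples, lines only join the points of a sample, and the grey band is the span of the gene. Inside Axin2 the Epcam+ tumour samples lie mostly below HF and IFE, while at -19.5 kb they lie above them.

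The ligand Wnt5a, known mainly for signalling without beta-catenin, had 75.8 CPM in HF, 110 in IFE, 128 in K14 Epcam+ cells, 233 and 122 in Lgr5 Epcam+ samples 1 and 2, and 119 in Lgr5 Epcam-. All tumour samples stood above both normal samples, but Lgr5 Epcam+ sample 1 was far above sample 2. The ratio of Epcam+ tumours to normal epithelia was 0.79 (SE 0.30, edgeR adjusted p = 0.0560). With only the peaks within 10 kb it was called (1.15, edgeR adjusted p = 0.00607), and in the full window edgeR with TMM scaling did not call it. In the full window edgeR called 1 of the 10 genes in this comparison and DESeq2 called 2. In Lgr5 Epcam+ against HF the ratio was 1.23 (SE 0.42, edgeR adjusted p = 0.0981), and it was 0.69 against sample 2 alone.

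Wnt5a peaks differed in their level in the Epcam- cells. Of the 6 Wnt5a peaks called higher in Epcam+ tumours, 1 was called without Lgr5 Epcam+ sample 1 and 2 without HF. The most accessible peak, chr14:28504451-28506306, lies at the lower end of the span and had 6.89 CPM in HF, 15.1 in IFE, 25.3 in K14 Epcam+ cells, 43.2 and 26.9 in Lgr5 Epcam+ and 40.7 in Lgr5 Epcam-. It rose by 2.36 in Lgr5 Epcam+ against HF (SE 0.40, edgeR adjusted p = 0.00114) and by 1.54 in Epcam+ tumours against both normal samples (SE 0.40, edgeR adjusted p = 0.0141), the latter lost without HF (edgeR adjusted p = 0.0827) or without Lgr5 Epcam+ sample 1 (edgeR adjusted p = 0.0697). Its ratio in Lgr5 Epcam- against Lgr5 Epcam+ was 0.21 (SE 0.35). A peak 35.9 kb beyond the gene, chr14:28562850-28563913, had 1.78 CPM in HF, 1.42 in IFE, 14.4, 18.3 and 7.86 in Epcam+ tumours and 2.85 in Lgr5 Epcam-. It rose by 3.12 in Epcam+ tumours (SE 0.50, edgeR adjusted p = 0.00168) and fell by 2.22 in Lgr5 Epcam- (SE 0.70, edgeR adjusted p = 0.0473), a call lost with background subtracted, where the ratio was -2.55 (edgeR adjusted p = 0.0631).

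Another kind of Wnt5a peak was accessible in the normal and the Epcam+ tumour samples and low in the Epcam- sample. At chr14:28541871-28542940 HF had 28.5 CPM, IFE 29.8, K14 Epcam+ 14.8, Lgr5 Epcam+ 35.2 and 19.4, and Lgr5 Epcam- 2.49. The Epcam- value lies far below the other 5. It fell by 3.49 (SE 0.49, edgeR adjusted p = 0.000754), while the ratio of Epcam+ tumours to normal epithelia was -0.33 (SE 0.37). Between these peaks, chr14:28532599-28534362 was highest in Lgr5 Epcam- at 12.3 CPM, against 1.74 to 7.17 in the other samples, and rose by 2.32 against Lgr5 Epcam+ (SE 0.58, edgeR adjusted p = 0.0170).

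Wnt7b, a ligand of the epidermis, had 167 CPM in HF, 254 in IFE, 297 in K14 Epcam+ cells, 430 and 209 in Lgr5 Epcam+ and 241 in Lgr5 Epcam-. Tumour and normal samples overlap, since Lgr5 Epcam+ sample 2 lay below IFE. The ratio of Epcam+ tumours to normal epithelia was 0.57 (SE 0.30, edgeR adjusted p = 0.173). The Lgr5 Epcam+ samples differed by 1.04 on the log2 scale here, and the 981 peaks within 5 Mb of Wnt7b differed between them by a median of 0.53, which reaches beyond the gene. Of the 6 Wnt7b peaks called higher in Epcam+ tumours, 2 were called without Lgr5 Epcam+ sample 1 and 2 without HF. A peak inside Wnt7b, chr15:85574231-85575609, had 2.26 CPM in HF, 2.66 in IFE, 25.2 in K14 Epcam+ cells, 33.0 and 17.2 in Lgr5 Epcam+ and 29.5 in Lgr5 Epcam-. All tumour samples, the Epcam- one included, exceeded both normal samples by several fold. It rose by 3.40 in Epcam+ tumours (SE 0.46, edgeR adjusted p = 0.000776), the largest rise among the 173 peaks. In the opposite direction, chr15:85629639-85630918, 48.5 kb from the gene, had 10.6 CPM in HF, 29.9 in IFE and 1.73 to 4.21 in the tumour samples, a fall of 2.64 (SE 0.52, edgeR adjusted p = 0.00434).

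Wnt10a, a ligand needed for hair follicles, teeth and other skin appendages, had 118 CPM in HF, 207 in IFE, 176 in K14 Epcam+ cells, 345 and 208 in Lgr5 Epcam+ and 145 in Lgr5 Epcam-. HF was the lowest sample, and the Lgr5 Epcam+ samples were the highest, sample 2 only just above IFE. In Lgr5 Epcam+ against HF the ratio was 1.22 (SE 0.39, edgeR adjusted p = 0.0812), the nearest to the threshold of the 10 genes, and DESeq2 called it (adjusted p = 0.0212). The 2 normal samples differed by -0.80 (HF minus IFE). The peak with the highest level, chr1:74806522-74808763, 3.47 kb from the gene, had 17.1 CPM in HF, 36.2 in IFE, 43.6, 90.1 and 55.9 in Epcam+ tumours and 54.2 in Lgr5 Epcam-. It rose by 2.10 in Lgr5 Epcam+ against HF (SE 0.32, edgeR adjusted p = 0.000562). A neighbour at the end of the gene, chr1:74804284-74805755, had 24.4 CPM in HF, 54.4 in IFE, 33.0, 63.4 and 41.5 in Epcam+ tumours and 9.22 in Lgr5 Epcam-, and fell by 2.52 in Lgr5 Epcam- against Lgr5 Epcam+ (SE 0.35, edgeR adjusted p = 0.000687). The 2 peaks thus parted in the Epcam- sample.

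Fzd7, a Frizzled receptor for Wnt ligands, had 167 CPM in HF, 102 in IFE, 156 in K14 Epcam+ cells, 244 and 254 in Lgr5 Epcam+ and 138 in Lgr5 Epcam-. The Lgr5 Epcam+ samples agreed closely and were the highest, and HF lay above K14 Epcam+. The ratio of Epcam+ tumours to normal epithelia was 0.70 (SE 0.28, edgeR adjusted p = 0.0721), and that of Lgr5 Epcam- to Lgr5 Epcam+ was -0.85 (SE 0.33, edgeR adjusted p = 0.182). All 15 Fzd7 peaks had a negative log2 ratio in Lgr5 Epcam- against Lgr5 Epcam+, from -3.60 to -0.07, and 1 of them was called. That peak, chr1:59448688-59449785, 32.9 kb outside the gene, had 25.5 CPM in HF, 10.4 in IFE, 16.9, 25.4 and 39.3 in Epcam+ tumours and 2.73 in Lgr5 Epcam- (SE of the ratio 0.49, edgeR adjusted p = 0.000615). A peak nearby, chr1:59443763-59444896, was tumour-high in every tumour group: 3.65 CPM in HF and 2.0 in IFE against 14.3, 17.9 and 21.1 in Epcam+ tumours and 14.4 in Lgr5 Epcam-. It rose by 2.68 in Epcam+ tumours (SE 0.44, edgeR adjusted p = 0.00178).

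Sfrp1, a secreted Frizzled-related protein that binds Wnt ligands, showed the largest range of the 10 genes, 2.11 on the log2 scale. It had 264 CPM in HF, 241 in IFE, 130 in K14 Epcam+ cells, 220 and 293 in Lgr5 Epcam+ and 67.9 in Lgr5 Epcam-. The Epcam- sample was the lowest and K14 Epcam+ the next, while the Lgr5 Epcam+ samples lay on either side of the normal ones. In Lgr5 Epcam- against Lgr5 Epcam+ Sfrp1 fell by 1.92 (SE 0.37, edgeR adjusted p = 0.0240). The ratio of Lgr5 Epcam+ to K14 Epcam+ was 0.99 (SE 0.35, edgeR adjusted p = 0.922), not called. Against HF the Lgr5 Epcam- sample was lower by 1.96 on the log2 scale, with no replicate on either side.

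The fall of Sfrp1 was spread over the locus. Of its 23 peaks, 20 had a negative ratio in Lgr5 Epcam- against Lgr5 Epcam+, with a median of -1.78, and 9 were called lower, among them the peak at the lower end of the span (chr8:23410532-23412205, 10.2 CPM in Lgr5 Epcam- against 16.1 to 27.4 in the other samples). The most accessible Sfrp1 peak, chr8:23466088-23467368, 17.1 kb beyond the gene, had 19.9 CPM in HF, 38.0 in IFE, 28.4 in K14 Epcam+ cells, 45.8 and 46.3 in Lgr5 Epcam+ and 6.35 in Lgr5 Epcam-. It fell by 2.87 (SE 0.35, edgeR adjusted p = 0.000303), while its ratio of Epcam+ tumours to normal epithelia was 0.47 (SE 0.34, edgeR adjusted p = 0.320). With background subtracted 11 Sfrp1 peaks were called lower, including all 9. Peaks within 5 Mb of Sfrp1 had a median ratio of 0.01 in the same comparison.

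Dkk3, a divergent Dickkopf family protein, had 230 CPM in HF, 153 in IFE, 178 in K14 Epcam+ cells, 223 and 229 in Lgr5 Epcam+ and 198 in Lgr5 Epcam-, and the groups overlap. Its ratio of Epcam+ tumours to normal epithelia was 0.13 (SE 0.26), and it turned to -0.09 with total-count scaling and to -0.17 with background subtracted. Single peaks moved far in both directions. At chr7:112164371-112165540, 5.47 kb outside the gene, HF had 14.5 CPM, IFE 6.24, Epcam+ tumours 2.05, 1.44 and 2.15, and Lgr5 Epcam- 4.21, a fall of 3.06 in Lgr5 Epcam+ against HF (SE 0.57, edgeR adjusted p = 0.00207). The most accessible Dkk3 peak, chr7:112143766-112144833, had 48.9 CPM in HF, 22.5 in IFE, 30.3, 47.7 and 55.4 in Epcam+ tumours and 10.8 in Lgr5 Epcam-, and fell by 2.26 in Lgr5 Epcam- against Lgr5 Epcam+ (SE 0.32, edgeR adjusted p = 0.000748). Over the whole gene the ratio there was -0.19 (SE 0.32), not called, and 14 of its 21 peaks had a positive ratio.

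Wif1, Wnt inhibitory factor 1, held 3 peaks and had 23.2 CPM in HF, 16.5 in IFE, 25.1 in K14 Epcam+ cells, 20.3 and 28.8 in Lgr5 Epcam+ and 30.2 in Lgr5 Epcam-. No Wif1 peak and no comparison of the gene was called. Its most accessible peak, chr10:121033119-121034542, lies over the start and had 10.02 CPM in HF, 10.2 in IFE, 16.8 in K14 Epcam+ cells, 12.3 and 16.97 in Lgr5 Epcam+ and 20.4 in Lgr5 Epcam-, so all tumour samples stood above both normal ones, without a call. Its ratio of Epcam+ tumours to normal epithelia, over the gene, was 0.32 (SE 0.28), and that of Lgr5 Epcam+ to HF was 0.08 (SE 0.38), turning to -0.24 with total-count scaling.

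Joined over both comparisons, the 173 peaks sort into a few patterns, given here beside the same classes over all 177238 peaks. There were 9 peaks (5.2%, against 2.70% of all peaks) that rose in Epcam+ tumours and fell in Lgr5 Epcam- against Lgr5 Epcam+: 3 each of Lef1 and Wnt5a, and 1 each of Axin2, Wnt7b and Dkk3. A further 19 (10.98%, against 12.3%) rose in Epcam+ tumours without a call in the Epcam- comparison. Another 19 (10.98%, against 2.82%) fell in Lgr5 Epcam- without a call between Epcam+ tumours and normal epithelia, 9 of these at Sfrp1. Of the 25 that fell in Epcam+ tumours, 24 (13.9% of the 173, against 14.4%) had no call in the Epcam- comparison. The Lgr5 Epcam+ samples enter both comparisons, so these counts are a description only. The 28 peaks lower in Lgr5 Epcam- were lower against each Lgr5 Epcam+ sample taken alone, with log2 ratios from -3.83 to -1.29 against sample 1 and from -3.88 to -0.99 against sample 2. Both samples entered the test that called these peaks, so the shared sign is not separate evidence.

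Markers of some cell types also differed in both comparisons. The 12 fibroblast and pericyte markers summed to 1268 CPM in Lgr5 Epcam- against 555 to 664 in the other samples, and 7 of the 12 were called higher than in Lgr5 Epcam+. The 8 epithelial markers summed to 557 CPM in Lgr5 Epcam- against 1451 to 2194, and 6 of the 8 were called lower. Over all genes 2.04% were called higher and 2.36% lower in Lgr5 Epcam- against Lgr5 Epcam+. Of all markers listed, Cd8a and Tyr had no peak, and none of the others was at 0 counts in any sample. Melanocyte markers summed to 306 CPM in Lgr5 Epcam- against 269 to 438 in the others. Endothelial markers summed to 464 CPM in HF and 521 in IFE, to 686 to 777 in the Epcam+ tumours and to 615 in Lgr5 Epcam-. Leukocyte markers summed to 142 CPM in HF and 199 in IFE, to 262 to 278 in the Epcam+ tumours and to 220 in Lgr5 Epcam-. Both sums were thus higher in every Epcam+ tumour sample than in the normal samples, in the comparison where Lef1 was called. There 4 of 10 endothelial markers were called higher and 2 lower, with a median ratio of 0.51. Of 11 leukocyte markers 2 were called higher and 2 lower, with 9 of the 11 above 0 and a median of 0.47. Over all genes 14.8% were called higher and 9.15% lower, with a median of 0.07, so the leukocyte counts are near these shares. The part of these cell types in the results at Sfrp1, Lef1, Wnt5a and the other members was not tested. In these bulk samples fewer cells with a site open and less opening per cell cannot be told apart.

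The smaller comparisons called little. Between Lgr5 Epcam+ and K14 Epcam+ none of the 10 genes was called, and edgeR called 0.011% of all genes, 2 in number, with 663 at an unadjusted p below 0.05 and 14 called by DESeq2. The difference between the change of Lgr5 Epcam+ from HF and that of K14 Epcam+ from IFE was called for no gene, with 1017 at an unadjusted p below 0.05 and 3 called by DESeq2. Its largest value among the members was 1.45 for Wnt10a (SE 0.58, edgeR adjusted p = 0.778). Comparisons of 1 sample with 1 sample were not tested, although the fit over 5 groups would allow it under the same assumption of shared spread, and a gene was taken as different when its log2 ratio passed 1 and was past 0.5 in the same direction in each run used. Between the Lgr5 Epcam+ samples themselves this rule took 5.07% of all genes and, of the 10, Wnt7b. HF against IFE took 4.99% of all genes and none of the 10, K14 Epcam+ against IFE 17.8% and none of the 10, and Lgr5 Epcam- against HF 19.1% and Sfrp1 alone. In K14 Epcam+ against IFE the members farthest from 0 were Lef1 at 0.94, Sfrp1 at -0.89 and Axin2 at -0.77.

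Other genes of the pathway, a list of 80 fixed with earlier results of these data known, all held a peak and were tested in the same fits. In Epcam+ tumours against normal epithelia 5 of the 80 were called higher and 13 lower, against 14.8% and 9.15% of all genes, with a median ratio of -0.04 against 0.07 over all genes. The 3 that rose most were Dvl1 (1.81), which carries the signal from the receptor, Notum (1.03), which removes the lipid of Wnt ligands, and the receptor Fzd4 (1.02). Those that fell most were the membrane antagonist Apcdd1 (-1.83), the beta-catenin cofactor Pygo1 (-1.66) and Tnfrsf19 (-1.53), listed among the targets. By role, 3 of 10 nuclear factors, 2 of 6 targets and 1 of 4 agonists were lower, with none higher. Of 17 receptors 1 was higher and 3 lower, of 17 antagonists 1 and 2, of 16 ligands 2 and 2, and of 10 genes of signal transduction 1 and 0. In Lgr5 Epcam- against Lgr5 Epcam+ 3 of the 80 were higher, the antagonists Sfrp4 (2.26) and Dkk2 (1.63) and the agonist Rspo3 (1.88), and 1 was lower, the receptor Fzd10 (-2.23). Over all genes 2.04% were called higher and 2.36% lower there, so the counts among the 80 are near these shares. The other 15 of the 17 listed antagonists were not called, and 10 of the 17 had a ratio below 0. The fibroblast and pericyte markers are higher in the same sample (1268 CPM against 555 to 664), and their part in these 3 rises was not tested. In Lgr5 Epcam+ against HF 2 were higher, Dvl1 (2.11) and the ligand Wnt10b (1.87), and 6 lower, with Tle4 (-1.63), Lgr5 (-1.53) and Fzd2 (-1.52) farthest from 0. In that comparison 6.16% of all genes were called higher and 2.75% lower. No call among the 80 was made in Lgr5 Epcam+ against K14 Epcam+.

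**Figure D4:**
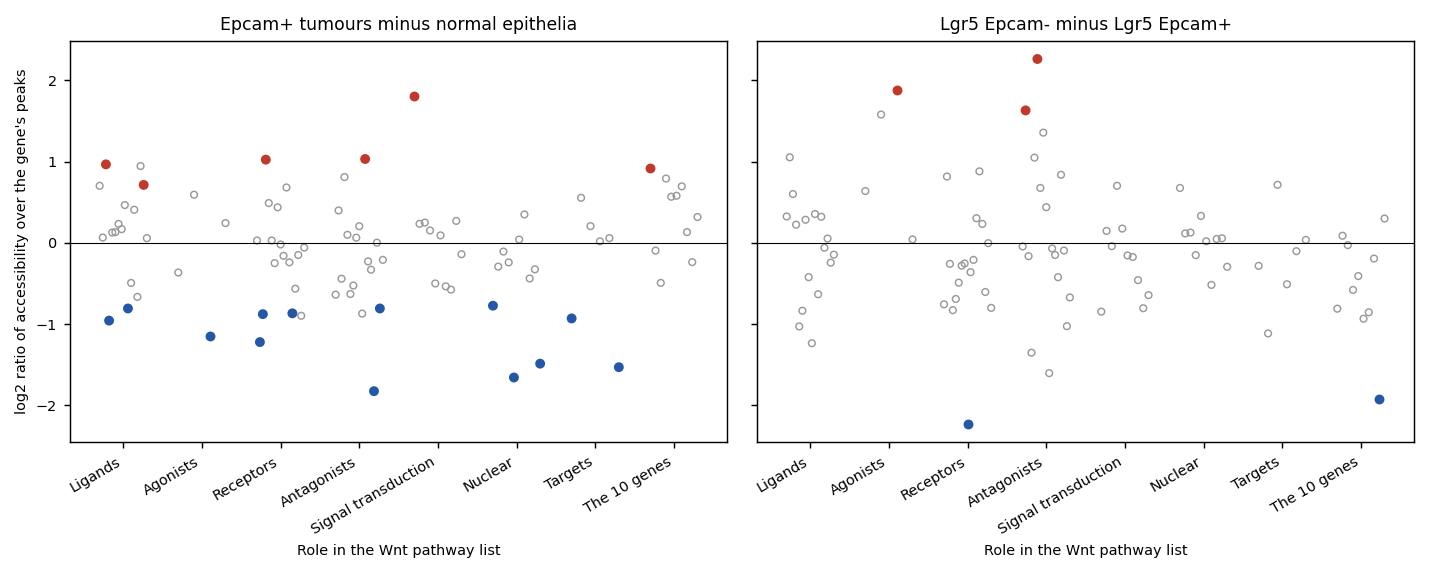
log2 ratio of accessibility over each gene's peaks for the 80 other pathway genes by role, and for the 10 genes, in Epcam+ tumours minus normal epithelia (left) and Lgr5 Epcam- minus Lgr5 Epcam+ (right). Filled points are called by edgeR (red higher, blue lower), open points are not. On the left 5 of the 80 are red and 13 blue, and on the right 3 are red and 1 is blue.

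Genes with the most similar pattern were found for each member by the distance between log2 CPM values centred on their mean over the 6 samples, leaving out genes within 1 Mb. For Lef1 they were Plin2 (Pearson r 0.99) and Tspan2 (r 0.99), for Axin2 Sez6l (r 0.99) and Lactbl1 (r 0.99), and for Sfrp1 Cers4 (r 0.98) and Celsr2 (r 0.98). Sfrp1 had the farthest neighbours, at a distance of 0.38 and 0.43, and Wnt7b had the nearest, Pdlim1 at 0.12. This distance grows with the range of a gene, which was largest for Sfrp1. Pearson r was lower than for Sfrp1 at Tcf7 (0.942 and 0.937), Dkk3 (0.960 and 0.942) and Wif1 (0.955 and 0.949). These correlations run over 6 samples that share their scaling and their depth, and are a description of likeness only.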

How the data were processed

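Counts of ATAC-seq reads per peak were taken as deposited by the authors for 12 runs: each of the 6 samples was sequenced single-end and again paired-end. Bowtie2, HOMER, bedtools and HTSeq on mm10 are named, per the submitters' processing notes, without versions, and how peaks were called or filtered was not stated there. Runs were summed, with the paired-end run alone on chromosomes 15 to X, and peaks were summed per nearest protein-coding gene of the RefSeq table. Tests used edgeR 4.0.16 in R 4.3.3 (limma 3.58.1), with TMM scaling, filterByExpr and Benjamini-Hochberg adjustment over all 18104 genes or 177238 peaks. The fit over 5 groups has 1 residual degree of freedom and that over 3 classes has 3. Log2 CPM values for comparisons of 1 sample with 1 sample used a prior count of 2. DESeq2 1.42.0, other scalings, runs, windows, filters and left-out samples were alternatives. Background subtraction and leaving out HF, IFE or K14 Epcam+ were chosen after seeing the data, as were the peaks over starts, 2 further inner Lef1 peaks, 1 inner Tcf7 peak and the Sfrp1 peak at the span's end. The other named peaks are, for each gene, the most accessible peak and the called peaks with the largest ratio per comparison and direction, described in part. Pathway genes were named by the 3 largest called ratios per direction, and similar genes by the 2 smallest distances. The members and lists (7 marker lists and the pathway list) were chosen with earlier results of these data known. The fitting step was tested on simulated data. The genotype of the tumour groups is given in part, and the rest of it is not reported here.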

Additional observations from a re-analysis of the deposited data

How the results depend on the processing

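Of 330 alternatives for the members' log2 ratios, 289 kept direction and side of the threshold, 3 lost a call (all Lef1), 17 gained a call, 7 moved beyond the spread and 14 changed sign, none of those above 0.43 in size. The sign changed for Dkk3 in Lgr5 Epcam+ against HF (0.012 with median-of-ratios scaling, 0.075 within 10 kb), for Wif1 there (-0.24 with total-count scaling, -0.24 with background subtracted), and in Lgr5 Epcam- against Lgr5 Epcam+ for Axin2 (0.16 with total-count scaling, 0.43 within 10 kb, 0.088 with background subtracted) and Wnt5a (0.040 within 10 kb). In Epcam+ tumours against normal epithelia it changed for Tcf7 (0.039 within 10 kb, and from -0.29 to 0.14 when 1 sample was left out), Dkk3 (-0.092 with total-count scaling, -0.17 with background subtracted, and from -0.13 to 0.46 when 1 sample was left out) and Sfrp1 (from -0.51 to 0.023 when 1 sample was left out). In that comparison the members called higher numbered 3 with median-of-ratios scaling, 2 with DESeq2 and 0 to 3 when 1 sample was left out, and those called lower 1 with total-count scaling, within 10 kb or with background subtracted (Axin2). Its called peaks over the whole table fell from 53663 to 27297 without Lgr5 Epcam+ sample 1 and 33224 without IFE (49162 at most when 1 sample was left out), and leaving out 1 sample left 11 to 28 member peaks higher and 13 to 22 lower. In Lgr5 Epcam+ against HF 2 members were called higher within 10 kb and 2 with DESeq2, 25 member peaks were lower with total-count scaling and 7 with DESeq2, and 2743 genes were called with background subtracted against 1612. In Lgr5 Epcam- against Lgr5 Epcam+ DESeq2 called 1301 genes against 797 and 14716 peaks (4979 higher and 9737 lower) against 22266 (12072 and 10194), background subtraction gave 6931 and 10889, and 7 member peaks were higher with total-count scaling. Lgr5 Epcam+ against K14 Epcam+ had 7 called genes with total-count scaling, 6 with runs summed, 4 with the paired-end run alone, 14 with DESeq2 and 5 with background subtracted, against 2. The difference of the tumour changes had 1, 1 and 3 with total-count scaling, the paired-end run alone and DESeq2. By the rule of size, 1 member differed in HF against IFE within 10 kb, 1 in K14 Epcam+ against IFE with runs summed, with the paired-end run alone or within 10 kb, and 2 in Lgr5 Epcam- against HF within 10 kb. The cause was not tested for any of these. Total-count scaling turned the genes called higher and lower from 2681 and 1656 to 1860 and 2720 in Epcam+ tumours against normal epithelia, from 1115 and 497 to 778 and 1237 in Lgr5 Epcam+ against HF, and from 369 and 428 to 668 and 449 in Lgr5 Epcam- against Lgr5 Epcam+. No paired analysis was possible because the groups share no replicate numbers beyond the first and only the Lgr5 Epcam+ group has a second sample.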
